A study of Rattus norvegicus with 21 samples.

Results

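The glucocorticoid receptor gene Nr3c1 and 3 of the receptor's widely used target genes, Fkbp5, Sgk1 and Per1, were followed in rat PC12 cells given extracts of Jakyakgamcho-tang (JGT). These 4 genes were chosen by Ensembl gene ID out of 32883 genes in each table, and their IDs are ENSRNOG00000014096.6 (Nr3c1), ENSRNOG00000022523.5 (Fkbp5), ENSRNOG00000011815.8 (Sgk1) and ENSRNOG00000007387.7 (Per1). The rule that names them uses no measured value, although the genes were chosen with earlier results of these data known. PC12 cells derive from a tumour of the rat adrenal medulla and are used as a neuron-like model, and JGT is a traditional decoction of 2 herbs, peony and licorice. Messenger RNA was sequenced from 21 libraries, 3 for each of 7 groups. The groups were vehicle, which the labels also call untreated, a water extract at 4, 20 and 100 µg/mL (low, medium and high dose), and an ethanol extract at the same 3 doses. The labels name 1 cell line and do not say how long the cells were treated, what the vehicle was, or whether replicates were grown as separate cultures. The p-values below rest on the spread among these libraries alone, and that spread may be technical. In such bulk libraries, a lower level in each cell and fewer cells expressing a gene cannot be told apart.

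Glucocorticoids such as cortisol, or corticosterone in the rat, cross the cell membrane and bind the receptor that Nr3c1 encodes, which is held in the cytosol by heat shock protein 90 and its partner proteins. The bound receptor moves to the nucleus and binds DNA at glucocorticoid response elements, where it raises or lowers transcription. Fkbp5 encodes FKBP51, a partner protein that lowers the receptor's affinity for hormone and is itself induced by it, which makes a short negative feedback loop. Sgk1 encodes a serum- and glucocorticoid-regulated kinase that controls ion transport and cell survival, and Per1 encodes a period protein of the circadian clock that also responds to glucocorticoids and to cAMP. Licorice is linked to this pathway because glycyrrhetinic acid, derived from its glycyrrhizin, inhibits the enzyme 11β-hydroxysteroid dehydrogenase type II, which inactivates cortisol.

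Total expected counts per library ranged from 19918513 to 23781470 in vehicle, 18398186 to 28420922 with water extract and 8344416 to 23528245 with ethanol extract. From an earlier analysis of these data, 3 ethanol libraries were set apart from the other 18, namely low-dose replicate 1 and medium-dose replicates 2 and 3. Their fragment lengths, taken as gene length less effective length, were 178.7 to 202.5 bases, against 205.3 to 240.8 bases in the others. Their totals were 8344416 to 14918515 counts, against 15005249 to 28420922, so no wide gap parts them on either measure. Results are given with all 21 libraries and, where the 3 libraries bear on them, with the other 18, which leave 1 library in the medium-dose ethanol group. The spread of that lone library is assumed to be like that of the other groups. The tables list gene IDs without names, so the markers of PC12 cells and of other cell types, and the other genes of the pathway, were not analysed here.

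All 4 genes passed the filter on low counts and were among the 13550 genes tested. Their counts were whole numbers, within 0.005, in all 21 libraries. Compared per length, in the deposited TPM, a unit that divides by length, the levels were 24.9 ± 3.65 for Nr3c1, 23.5 ± 3.94 for Fkbp5, 13.2 ± 1.68 for Per1 and 0.834 ± 0.171 for Sgk1 (mean ± SD over n = 21 libraries). The receptor and its cochaperone gene Fkbp5 were thus at like levels, Per1 was lower, and Sgk1 was close to the limit of what these libraries count, with 10 to 49 counts per library. Nr3c1 had 721 to 2634 counts per library, Fkbp5 476 to 1520 and Per1 277 to 1190. Between libraries, edgeR estimated a coefficient of variation beyond counting noise of 6.43% for Fkbp5, 8.0% for Per1, 11.4% for Nr3c1 and 12.5% for Sgk1, with a median of 10.3% over all genes tested. Fkbp5 and Per1 were thus below the median spread.

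**Figure D1:**
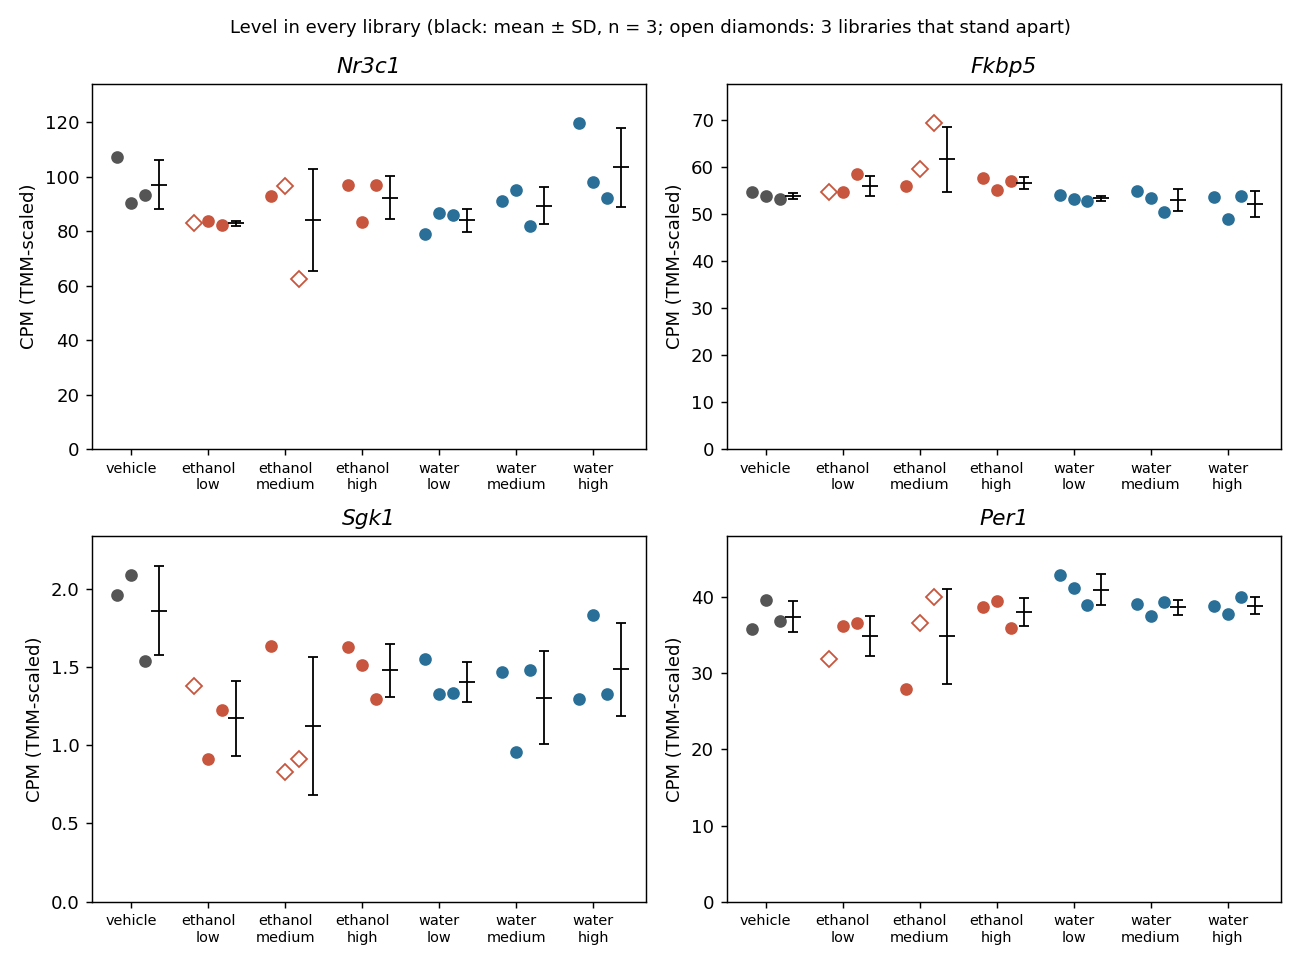
Level of each gene in every library, in CPM (counts scaled to a common TMM-normalised library total, vertical axis, from 0), by group (horizontal axis). Points are libraries, black marks are the group mean ± SD of 3 libraries, and open diamonds are the 3 ethanol libraries that stand apart. The highest Fkbp5 library (69.4 CPM) and the lowest Nr3c1 library (62.6 CPM) are the same open diamond, medium-dose ethanol replicate 3.

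The promoter sequences of the 1 gene that passed between the extracts with all 21 libraries, Fkbp5, and of the gene with the lowest level, Sgk1, are shown. Each is the 250 bases upstream of a RefSeq transcript start on the minus strand of the GRCr8 assembly, at chr20:6543556-6543805 for Fkbp5 and at chr1:24804832-24805081 for Sgk1. They are printed 5′ to 3′ in lower case, with matches to the GC box GGGCGG and the TATA box TATAAA, on either strand, in capitals.
Fkbp5: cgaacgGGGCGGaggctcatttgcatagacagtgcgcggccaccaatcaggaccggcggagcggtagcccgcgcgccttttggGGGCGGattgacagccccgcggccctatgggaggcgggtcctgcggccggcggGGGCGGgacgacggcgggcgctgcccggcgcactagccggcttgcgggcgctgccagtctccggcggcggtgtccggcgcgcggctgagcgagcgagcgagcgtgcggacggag
Sgk1: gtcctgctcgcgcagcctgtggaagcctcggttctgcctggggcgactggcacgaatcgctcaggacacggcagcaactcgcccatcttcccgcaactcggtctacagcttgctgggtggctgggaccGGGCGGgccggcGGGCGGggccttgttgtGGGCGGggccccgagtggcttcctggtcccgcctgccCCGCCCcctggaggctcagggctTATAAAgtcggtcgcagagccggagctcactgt
The Fkbp5 promoter had 3 GC boxes and no TATA box, and the Sgk1 promoter shown had 4 GC boxes and 1 TATA box close to the start. Of the other 2 Sgk1 windows, 1 had 2 GC boxes and no TATA box, and 1 had a TATA box and no GC box. The Fkbp5 and Sgk1 promoters shown had a G and C content of 76.0% and 69.6%. The median was 51.2% over the 250 upstream bases of 33469 promoter windows. In windows of 300 bases, which run 50 bases past the start, 33.1% of all promoters held a GC box and 14.2% a TATA box. RefSeq gave 7 such windows for the 4 genes: 1 for Fkbp5, 1 for Per1, 2 for Nr3c1 and 3 for Sgk1. The palindromic glucocorticoid response element, AGAACA and then TGTTCT after any 3 bases, was in 0.0149% of all windows and in 0 of these 7. A looser form, GNACA and then TGTNC after any 3 bases, was in 0.439% and 0 of 7, a single arm AGAACA in 20.7% and 0 of 7, the cAMP response element TGACGTCA in 1.83% and 0 of 7, and the clock factors' E-box CACGTG in 6.42% and 0 of 7. Both strands were searched, and any match of the palindrome is also a match of the looser form and of the arm. The windows are short, and these counts say only that those letters do not occur in them.

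Whether the extracts moved the receptor or its targets was asked first against vehicle. None of the 4 genes passed an adjusted p of 0.05 in any of the 6 comparisons with edgeR (quasi-likelihood F test, p-values adjusted over all genes by Benjamini and Hochberg), so 0 of 24 tests were called. Among all genes tested, 2.59, 13.3 and 3.92% were called at the low, medium and high dose of ethanol extract, and 0.369, 0.00738 and 0.0664% at the low, medium and high dose of water extract. At an unadjusted p under 0.05 there were 4 of 24. These were Sgk1 with low- and medium-dose ethanol and with medium-dose water, and Fkbp5 with medium-dose ethanol. Of the 13550 genes, edgeR gave such a p to 2403, 4410 and 2363 at the low, medium and high dose of ethanol extract. With water extract it did so for 1344, 424 and 892. DESeq2 called 1 of 24, Fkbp5 at the medium dose of ethanol, where it called 19.1% of all genes, and limma-voom called 0. With 18 libraries edgeR called 2 of 24, 1 for Sgk1 and 1 for Per1, while the shares of all genes called were 9.70, 24.9 and 22.7% for the 3 ethanol doses in rising order and 10.5, 0.283 and 4.33% for the 3 water doses. All 6 comparisons share the same 3 vehicle libraries, so a chance value in vehicle enters each of them.

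Nr3c1, the receptor, stood at 107, 90.4 and 93.5 CPM in the 3 vehicle libraries (CPM, counts scaled to a common TMM-normalised library total). With ethanol extract it was at 82.9, 83.9 and 82.2 CPM at the low dose, 92.9, 96.8 and 62.6 CPM at the medium dose, and 96.9, 83.3 and 96.8 CPM at the high dose. With water extract it was at 79.2, 86.8 and 86.0 CPM at the low dose, 91.0, 95.2 and 82.0 CPM at the medium dose, and 119.8, 98.3 and 92.2 CPM at the high dose. Both low-dose groups lay below vehicle without overlap, while the medium- and high-dose groups overlapped it. Every library was lower than every vehicle library in 15.9% of all genes at the low dose of ethanol extract and in 15.0% at the low dose of water extract. The group means were 97.05 ± 9.02 CPM in vehicle, 83.0 ± 0.886 with low-dose ethanol and 84.0 ± 4.19 with low-dose water (SD, n = 3 each). On the log2 scale these groups differed from vehicle by -0.23 ± 0.129 and -0.21 ± 0.128 (SE), with edgeR adjusted p = 0.384 for ethanol and 0.657 for water. When only the 6 libraries compared were fitted, the second became a call at the same size (-0.21 ± 0.0604, SE, edgeR adjusted p = 0.0294), in a fit that called 12.5% of all genes. Over the 6 comparisons the log2 change of the receptor gene ran from -0.23 to 0.09, and the outermost bounds of the 95% intervals were 0.71-fold and 1.28-fold of vehicle.

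Fkbp5, the feedback cochaperone, stood at 54.6, 53.7 and 53.2 CPM in vehicle, with an SD of 0.682 CPM. With ethanol extract it was at 54.7, 54.7 and 58.5 CPM at the low dose, 56.0, 59.5 and 69.4 CPM at the medium dose, and 57.6, 55.0 and 57.1 CPM at the high dose. With water extract it was at 53.9, 53.2 and 52.8 CPM at the low dose, 54.9, 53.5 and 50.5 CPM at the medium dose, and 53.5, 48.9 and 53.9 CPM at the high dose. All 9 ethanol libraries lay above all 3 vehicle libraries, with 54.6 CPM in the highest vehicle library and 54.7 CPM in the lowest ethanol library, and the water libraries lay on both sides of vehicle. Over all genes, 4.70% had every ethanol library above every vehicle library. By single dose, every library was higher in 15.6, 12.0 and 18.7% of genes at the low, medium and high dose. The log2 change from vehicle was 0.06 ± 0.0738, 0.19 ± 0.0736 and 0.07 ± 0.0732 for low-, medium- and high-dose ethanol extract (SE, edgeR adjusted p = 0.747, 0.0786 and 0.694). Averaged over the 3 doses, a comparison added after the data were seen, it was 0.11 ± 0.0602 (SE, edgeR adjusted p = 0.280), with 8.14% of all genes called. The medium-dose value rested on replicates 2 and 3, which stand apart: with 18 libraries it was 0.06 (edgeR adjusted p = 0.616). Without replicate 1 of that dose, which leaves only those 2, it was 0.26 ± 0.0704 (SE) and passed (edgeR adjusted p = 0.00514), with 44.4% of all genes called. On the TPM scale those 2 libraries were at 32.9 and 36.1, against 19.8 to 25.8 in the other 19. Per1 was also high there on that scale, at 16.7 and 17.3 TPM, against 8.82 to 14.8 in the other 19. The deposited TPM are not TMM-scaled, so a high TPM need not be a high CPM. In CPM, Per1 in those 2 libraries was at 36.5 and 40.0, within the 27.9 to 42.8 of all libraries. Nr3c1 had its highest value, 34.98 TPM, in replicate 2 and its lowest, 21.33 TPM, in replicate 3. In CPM, Nr3c1 in replicate 2 was at 96.8, within the 90.4 to 107 of vehicle. Sgk1 was at 0.65 and 0.67 TPM, below its median of 0.84 TPM over all libraries.

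Sgk1, the kinase, was the gene with the largest differences and the fewest counts. It stood at 1.96, 2.08 and 1.54 CPM in vehicle, from 45, 49 and 30 counts. With ethanol extract it was at 1.38, 0.911 and 1.22 CPM at the low dose, 1.63, 0.828 and 0.910 CPM at the medium dose, and 1.62, 1.51 and 1.29 CPM at the high dose. With water extract it was at 1.55, 1.33 and 1.33 CPM at the low dose, 1.47, 0.959 and 1.48 CPM at the medium dose, and 1.296, 1.83 and 1.33 CPM at the high dose. The vehicle mean was above all 6 treated means, and 14 of 18 treated libraries lay below every vehicle library. How many of all genes show such a pattern was not counted. Low-dose ethanol and medium-dose water did not overlap vehicle, a pattern that every library lower gives in 15.9 and 8.30% of all genes. The log2 change from vehicle was -0.70 ± 0.253, -0.72 ± 0.256 and -0.34 ± 0.235 at the low, medium and high dose of ethanol extract (SE, edgeR adjusted p = 0.147, 0.0655 and 0.504). It was -0.41 ± 0.230, -0.52 ± 0.233 and -0.32 ± 0.231 at the same doses of water extract (SE, edgeR adjusted p = 0.603, 1 and 0.971).

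Doses were also averaged, in comparisons added after the data were seen. Sgk1 then stood at -0.59 ± 0.193 from vehicle with ethanol extract and at -0.42 ± 0.186 with water extract (log2 change, SE), and edgeR adjusted p was 0.0657 and 0.557. Of all genes, 8.14% were called in the first and 0.162% in the second. The 95% interval of the ethanol average ran from -0.99 to -0.18, or 0.503-fold to 0.881-fold of vehicle. Sgk1 passed there without medium-dose ethanol replicate 1 (-0.71 ± 0.181, SE, edgeR adjusted p = 0.00666, 27.0% of all genes called) and with the low and high doses of the 18 libraries (-0.57 ± 0.196, SE, edgeR adjusted p = 0.0379, 22.4% of all genes called). With all 18 libraries it was -0.44 ± 0.195 (SE, edgeR adjusted p = 0.0931), and 27.6% of all genes were called with ethanol and 6.68% with water extract. With 18 libraries Sgk1 passed at the low dose of ethanol extract, at -0.79 ± 0.255 on the log2 scale (SE, edgeR adjusted p = 0.0490), where 9.70% of all genes were called. With fragment length as a covariate it did not pass there (edgeR adjusted p = 0.0986). Medium-dose ethanol replicate 1 was the only library of that dose with more than 1 CPM of Sgk1. Without it, only libraries that stand apart were left at that dose. The medium-dose change was then -1.09 ± 0.279 (SE, edgeR adjusted p = 0.00326), with 44.4% of all genes called. The 18 libraries keep only that replicate, and give -0.19 ± 0.324 (SE, edgeR adjusted p = 0.717). Medium-dose ethanol replicate 1, with 24 counts, was the 1 library whose removal alone changed a call of Sgk1.

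Per1, the clock gene, stood at 35.7, 39.7 and 36.8 CPM in vehicle. With ethanol extract it was at 31.8, 36.2 and 36.6 CPM at the low dose, 27.9, 36.5 and 40.0 CPM at the medium dose, and 38.7, 39.4 and 35.9 CPM at the high dose. With water extract it was at 42.8, 41.1 and 38.9 CPM at the low dose, 39.1, 37.5 and 39.4 CPM at the medium dose, and 38.8, 37.8 and 40.0 CPM at the high dose. Every group overlapped vehicle, and the lowest library was medium-dose ethanol replicate 1. The log2 change from vehicle ran from -0.10 to 0.13 over the 6 comparisons (edgeR adjusted p from 0.480 to 1), and the outermost bounds of the 95% intervals were 0.81-fold and 1.26-fold of vehicle. With 18 libraries, where that lowest library is the whole medium-dose group, Per1 passed at the medium dose (-0.42 ± 0.0898, SE, edgeR adjusted p = 0.00121), with 24.9% of all genes called. The average of the ethanol doses then also passed against vehicle (-0.14 ± 0.0530, SE, edgeR adjusted p = 0.0432), but not over the low and high doses alone (-0.01, edgeR adjusted p = 0.932).

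**Figure D2:**
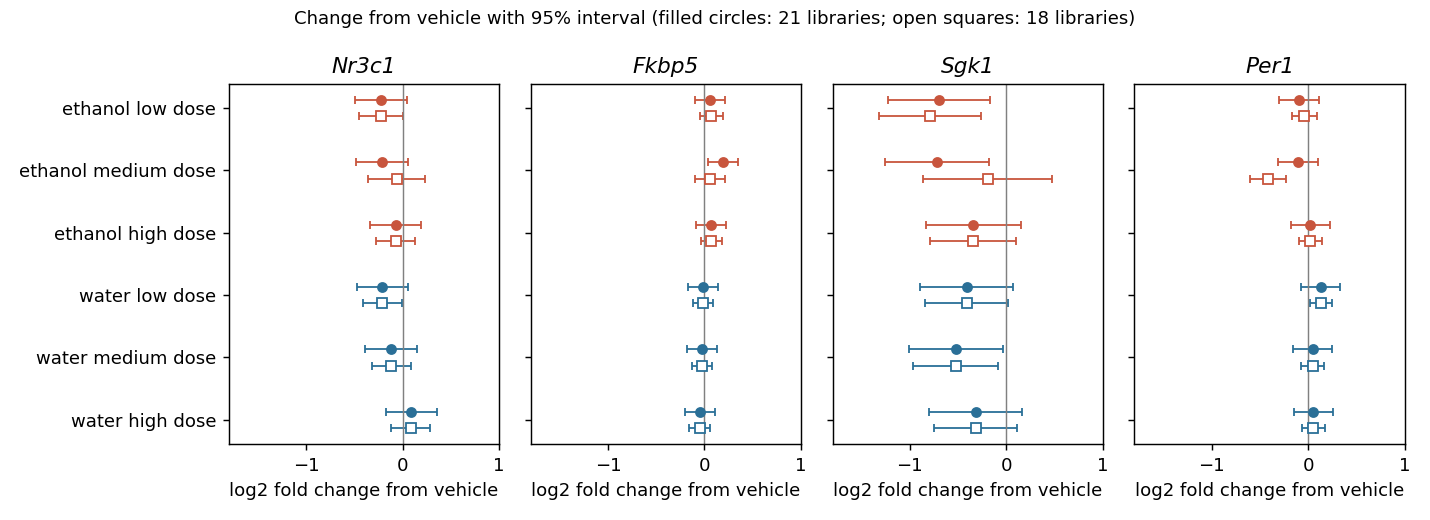
Log2 fold change from vehicle (horizontal axis) with its 95% interval, for each gene and each extract and dose (vertical axis). Filled circles come from the fit of 21 libraries and open squares from the fit of 18. The filled Sgk1 circles lie between -0.72 and -0.32 with wide intervals, and the open square of Per1 at the medium dose of ethanol extract rests on 1 library.

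In the order of the 7 group means, nearly all neighbours had libraries that overlapped. This was so for all 6 neighbouring pairs of Nr3c1, Sgk1 and Per1. For Fkbp5 it was so for 5 of 6, and the exception was low-dose ethanol (56.0 ± 2.16 CPM, SD, n = 3) above vehicle (53.9 ± 0.682 CPM, SD, n = 3). In 15.6% of all genes every low-dose ethanol library was above every vehicle library. Fkbp5 was ordered by extract, with the 3 ethanol means first, then vehicle, then the 3 water means. How many of all genes have this order was not counted. Sgk1 had vehicle first, Nr3c1 high-dose water first (103 ± 14.5 CPM, SD, n = 3), and Per1 low-dose water first (41.0 ± 1.98 CPM, SD, n = 3). The median log2 change of the 4 genes against vehicle was -0.16, -0.16 and -0.02 at the low, medium and high dose of ethanol extract and -0.11, -0.07 and 0.00 with water extract. The median size of the change, whatever its sign, was 0.16, 0.20 and 0.07 for the 4 genes with ethanol extract, against 0.14, 0.21 and 0.13 over all genes tested. With water extract it was 0.17, 0.08 and 0.07, against 0.10, 0.07 and 0.09.

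The extracts were then compared with each other, in contrasts that set no vehicle library against them, although the model of all 21 libraries took its spread from vehicle too. Fkbp5 was 1.10-fold higher with ethanol than with water extract when doses were averaged. On the log2 scale this was 0.14 ± 0.0424 (SE), with a 95% interval of 0.05 to 0.23 and an edgeR adjusted p of 0.0491. It was the 1 gene of 4 that passed, while 9.28% of all genes were called in this comparison. Of the 9 water libraries, 8 lay below all 9 ethanol libraries. The exception, medium-dose water replicate 1, was at 54.9 CPM, against 54.7 CPM in the lowest ethanol library. How many of all genes have 8 of 9 water libraries so placed was not counted. The call was at the edge of the threshold: it was lost when any of 16 of the 18 libraries was left out, with adjusted p values up to 0.103, and it was kept only without medium-dose ethanol replicate 1 or 2. With 18 libraries Fkbp5 missed the threshold at 0.10 ± 0.0360 (SE, edgeR adjusted p = 0.0526). Fragment length as a further covariate gave 0.09 ± 0.0424 (SE, edgeR adjusted p = 0.167). DESeq2 and limma-voom kept the call (adjusted p = 0.0115 and 0.0410) while calling 14.6 and 10.3% of all genes. In edgeR with all doses it was lost with no filter on low counts (adjusted p = 0.0974), with the replicate number as a block (adjusted p = 0.0569) and when the vehicle libraries were left out of the fit (adjusted p = 0.0759, with 5.42% of all genes called).

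At single doses, the log2 difference of Fkbp5 between ethanol and water extract was 0.07 ± 0.0736, 0.22 ± 0.0735 and 0.12 ± 0.0732 at the low, medium and high dose (SE, edgeR adjusted p = 0.925, 0.0670 and 0.624). Every ethanol library was above every water library at each of the 3 doses, as in 7.93, 9.77 and 13.7% of all genes at the low, medium and high dose. None of the 4 genes was called at a single dose, so edgeR called 0 of 12 tests, and 2 had an unadjusted p under 0.05. Of the 13550 genes, 725, 4130 and 1407 had such a p at the low, medium and high dose. DESeq2 called 1, Fkbp5 at the medium dose, where it called 15.7% of all genes, and limma-voom 0. Of all genes, 0.0221, 7.34 and 0.0443% were called at the low, medium and high dose. With 18 libraries edgeR called 1 of 12, Per1 at the medium dose (-0.46 ± 0.0894, SE, adjusted p = 0.000600), from the 1 ethanol library left there, with 0.305, 18 and 11.3% of all genes called at the 3 doses. Fragment lengths ran from 178.7 to 231.1 bases in the 9 ethanol libraries (median 213.6), from 216.6 to 240.8 bases in the 9 water libraries (median 226.7) and from 221.7 to 233.5 bases in vehicle. The 2 libraries with the highest Fkbp5, at 59.5 and 69.4 CPM, had fragments of 202.5 and 178.7 bases. The fit with fragment length as a covariate used the 18 libraries, which leave out those 2. It therefore cannot show the part of fragment length in the difference over 21 libraries, which was not tested.

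**Figure D3:**
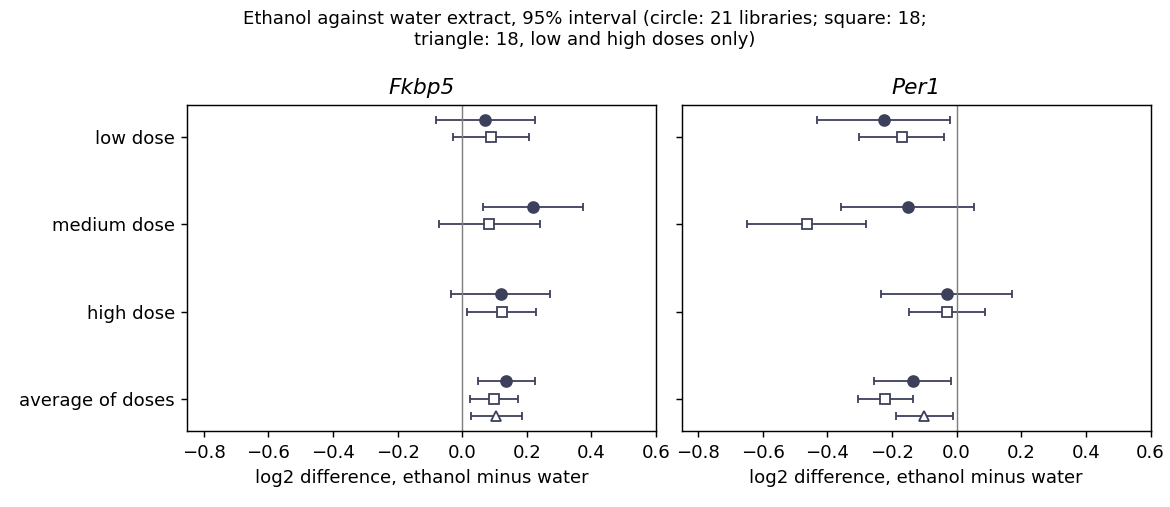
Log2 difference between ethanol and water extract (horizontal axis) with its 95% interval for Fkbp5 and Per1, at each dose and averaged over doses (vertical axis). Circles use 21 libraries, squares 18, and triangles the low and high doses of the 18. For Fkbp5 all points lie above 0, between 0.07 and 0.22, and for Per1 the medium-dose square at -0.46 comes from 1 ethanol library.

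Per1 had a mean log2 difference between ethanol and water extract of -0.14 ± 0.0565 (SE), which did not pass (edgeR adjusted p = 0.123). It passed without medium-dose ethanol replicate 3 (-0.17 ± 0.0509, SE, edgeR adjusted p = 0.0446, 8.15% of all genes called), and without replicate 1 of that dose it was -0.09 ± 0.0407 (SE, edgeR adjusted p = 0.0932). In 6 of 9 ethanol libraries Per1 was below every water library, a pattern whose share of all genes was not counted. At the low dose all 3 ethanol libraries were below all 3 water libraries, as in 9.02% of genes, and the low-dose value was -0.23 ± 0.0980 (SE, edgeR adjusted p = 0.904). With 18 libraries the average passed at -0.22 ± 0.0413 (SE, edgeR adjusted p = 0.000417), with 20.9% of all genes called. That average gives the 1 remaining medium-dose ethanol library, at 27.9 CPM, a weight as large as that of a whole group. Over the low and high doses of the 18 libraries alone, an alternative chosen after seeing the data, the difference was -0.10 ± 0.0429 (SE, edgeR adjusted p = 0.136). For Fkbp5 the same restriction gave 0.11 ± 0.0386 (SE, edgeR adjusted p = 0.0774).

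Nr3c1 and Sgk1 did not pass between the extracts. Their averaged log2 differences were -0.09 ± 0.0742 (SE, edgeR adjusted p = 0.443) and -0.17 ± 0.146 (SE, edgeR adjusted p = 0.461), with 95% intervals of -0.25 to 0.07 for Nr3c1 and -0.48 to 0.13 for Sgk1. The Sgk1 interval spans 0.719-fold to 1.10-fold, from 10 to 49 counts per library.

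**Figure D4:**
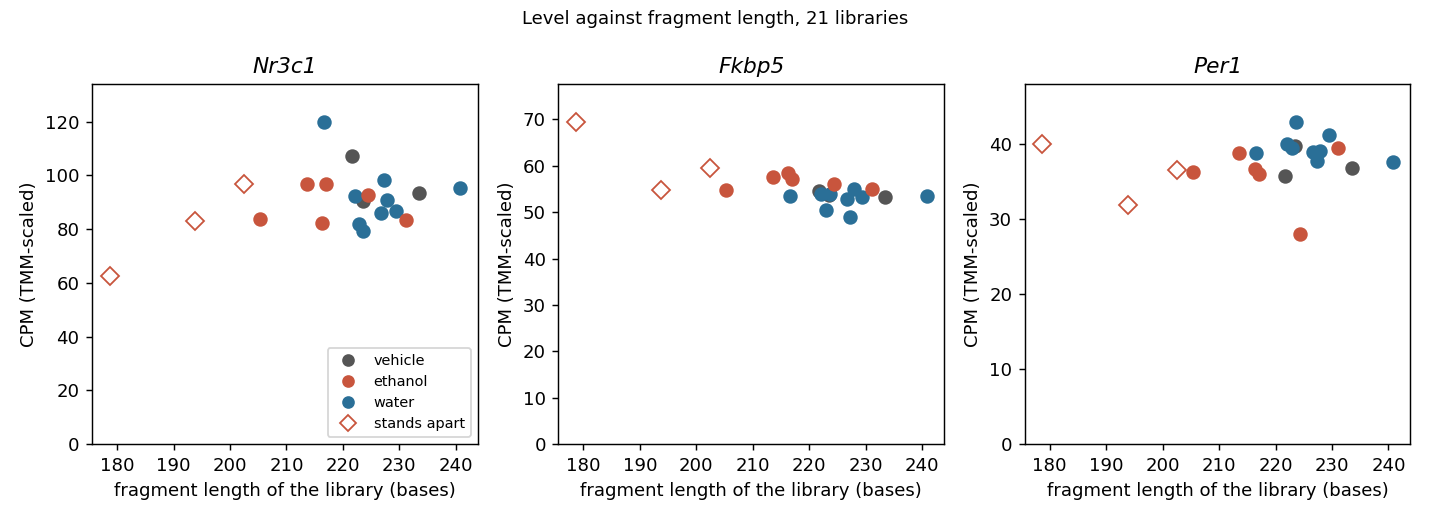
Level of Nr3c1, Fkbp5 and Per1 in CPM (vertical axis, from 0) against the fragment length of the library in bases (horizontal axis), 1 point per library, coloured by treatment, with open diamonds for the 3 ethanol libraries that stand apart. The library with the shortest fragments, 178.7 bases, has the highest Fkbp5 and the lowest Nr3c1, and the lowest Per1 is in a library of 224.4 bases.

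High and low doses were compared within each extract. None of the 4 genes was called in either extract, so edgeR called 0 of 8 tests, of which 1 had an unadjusted p under 0.05, and DESeq2 and limma-voom called 0 as well. Of all genes, 0.00738% were called with ethanol and 0.00% with water extract. An unadjusted edgeR p under 0.05 was given to 650 of the 13550 genes with ethanol and to 494 with water extract. The 1 such test among the members was Nr3c1 with water extract. There all 3 high-dose libraries (92.2 to 119.8 CPM) lay above all 3 low-dose libraries (79.2 to 86.8 CPM). It was 0.30 ± 0.128 higher on the log2 scale (SE, edgeR adjusted p = 1). In all, 8.80% of all genes had every high-dose library above every low-dose library. With 18 libraries its adjusted p was 0.184, and 0.349% of all genes were called with water and 0.596% with ethanol extract. With ethanol extract the differences ran from 0.01 for Fkbp5 to 0.36 for Sgk1, with edgeR adjusted p of 1 for all 4. The difference between the dose responses of the extracts, added after the data were seen, was called for 0 of the 4 genes and for 0.00% of all genes, or 0.00727% with 18 libraries (edgeR adjusted p of 1 for each member, 0 members at an unadjusted p under 0.05, and 0 by DESeq2 and by limma-voom).

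The 4 genes were compared with each other over the 21 libraries on the log2 CPM scale, which made 6 pairs. The receptor Nr3c1 and its target Fkbp5 had a Pearson r of -0.48 (permutation p = 0.0413, adjusted 0.124) and a Spearman rho of -0.12 (permutation p = 0.612, adjusted 0.734). Without the 2 libraries farthest from the median of Nr3c1 the r was 0.09, and over 18 libraries it was -0.04, so the relation rests on those libraries. Fkbp5 and Sgk1 had an r of -0.51 (permutation p = 0.0178, adjusted 0.107) and a rho of -0.33 (permutation p = 0.15, adjusted 0.424), and over 18 libraries an r of -0.18. None of the 6 pairs passed after adjustment. The permutations shuffled all 21 libraries regardless of group. Their p-values therefore do not separate differences between groups from relations within groups. Among 12258 other genes of at least 1 CPM on average, the 1 most like Fkbp5 over the 21 libraries was ENSRNOG00000009495.6, with a Pearson r of 0.92, which was 0.77 over the 18. The 1 most like Nr3c1 was ENSRNOG00000012385.6, with r of 0.91 and 0.83. For Per1 and Sgk1 the highest r was 0.89 and 0.78. With 12258 genes searched, such values describe likeness in these libraries and carry no test.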

How the data were processed

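The authors deposited 1 table per library with expected counts per gene (estimated counts that need not be whole, not normalized), TPM, and gene and effective lengths in bases, per the file headers. The submitters' processing notes list RSEM 1.3.3, and the library kit is a directional one, per the labels' protocols. The aligner version, genome build, annotation and strand setting are not given in the sources used here.

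The members were found by Ensembl ID, and their symbols come with the rule that chose them. The members and lists were chosen with earlier results of these data known. None of the 32883 IDs could be paired with a symbol through 47357 RefSeq genes (GRCr8), so 6 pathway lists of 74 symbols and the cell type markers were not used. The naming rule therefore gave the 4 members and, by ID, the most like gene of the 2 members with the highest such correlation. Promoters were matched to RefSeq by symbol, for 4 of 4 members.

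Expected counts were rounded and tested with edgeR 4.0.16 (R 4.3.3), quasi-likelihood F test, robust fit, TMM, default low-count filter, 1 model over 21 libraries with 1 coefficient per group, and Benjamini-Hochberg adjustment over 13550 genes at 0.05. There were 12 comparisons planned and 3 added after seeing the data. SEs are the absolute log2 change over the square root of F. Log2 CPM used a prior count of 2. Pairs of members used 100000 permutations (two-sided). Results were recomputed with limma-voom (limma 3.58.1) and DESeq2 1.42.0, and in edgeR with the size factors of DESeq2, no filter, a filter of 1 CPM in 3 libraries, an effective-length offset, a replicate block, only the groups compared, each library left out, and 18 libraries with and without fragment length as a covariate. The 3 libraries left out there were known from an earlier analysis of these data. Total counts ranged from 8344416 to 28420922.

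Tested on simulated data (high-dose ethanol against vehicle, 13450 genes), the fit found 8% of simulated 1.25-fold changes, 44% of 1.5-fold, 84% of 2-fold and 90% of 4-fold ones, and 6 of its 119 calls were false. Simulated counts were drawn independently around pooled gene means, and no simulated library stood apart. These shares may therefore not hold in the real libraries. No 2 libraries of a group agreed within sampling noise (21 pairs, chi-square over degrees of freedom from 2.96 to 140.2).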

Additional observations from a re-analysis of the deposited data

Results flagged for a closer look

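Fkbp5 differed between the extracts by a test of the difference itself. Averaged over doses, its level under ethanol extract exceeded that under water extract by 0.137 on the log2 scale (SE 0.0424, edgeR's quasi-likelihood test, adjusted p = 0.0491). This contrast sets no vehicle library against the extracts, so it does not show a change from vehicle. Neither averaged log2 change from vehicle passed. It was 0.11 ± 0.0602 with ethanol extract (SE, edgeR adjusted p = 0.280) and -0.03 ± 0.0596 with water extract (SE). All 9 ethanol libraries were above all 3 vehicle libraries, and 8 of 9 water libraries were below all ethanol libraries. Over all genes tested, 4.70% had every ethanol library above every vehicle library and 9.28% were called between the extracts. The share with 8 of 9 water libraries below all ethanol libraries was not counted. The call was lost when any of 16 of the 18 libraries was left out. Over all alternatives tried, the difference ran from 0.09 to 0.16 and the adjusted p from 0.00267 to 0.167. Without the 3 libraries that stand apart it missed the threshold, with or without fragment length as a covariate.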

How the results depend on the processing

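The count of members called kept its value in 138 of 152 results under the other settings and in 102 of 120 when 1 library was left out. With 18 libraries it became 1 (in place of 0) for low- and medium-dose ethanol against vehicle, medium-dose ethanol against water and the ethanol average against vehicle, where the low and high doses alone also gave 1. With fragment length as a covariate and 18 libraries it also moved for medium-dose ethanol against vehicle and against water, where 1 library is left in that group. DESeq2 gave 1 for the same 2 comparisons, with 19.1 and 15.7% of all genes called. A fit of only the groups compared gave 1 for low-dose water against vehicle, with 12.5% of all genes called. For ethanol against water averaged over doses it fell from 1 to 0 with no filter on low counts, with the replicate block, with only the groups compared, and with 18 libraries at the low and high doses. With all 18 libraries the count there was 1 again, but the gene was Per1 and no longer Fkbp5. Leaving out 1 library gave 0 to 1 for that comparison, for the ethanol average against vehicle and for medium-dose ethanol against water, and 0 to 2 for medium-dose ethanol against vehicle. For medium-dose ethanol against water, the share of all genes called with 1 library left out is not given here.

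Signs turned for medium-dose ethanol against water with 18 libraries (Nr3c1 0.0587, Sgk1 0.33; with the covariate 0.0278 and 0.28), and for Fkbp5 in high against low ethanol (-0.0012), none of them called. Leaving out 1 library turned 15 of 480 log2 changes, none of them called. The ranges were -0.22 to 0.0337 for Per1 (medium-dose ethanol against vehicle), -0.12 to 0.00677 and -0.0084 to 0.0684 for Nr3c1 and Per1 (high-dose ethanol against vehicle), -0.0511 to 0.00942 for Fkbp5 (medium-dose water against vehicle), and -0.0273 to 0.17 for Nr3c1 (high-dose water against vehicle). Between extracts they were -0.11 to 0.16 and -0.058 to 0.00878 for Sgk1 and Per1 at the high dose, -0.20 to 0.0877 for Nr3c1 at the medium dose and -0.0565 to 0.00682 for Nr3c1 at the low dose. Between high and low dose they were -0.0027 to 0.0484 for Fkbp5 with ethanol, and -0.058 to 0.0113 and -0.10 to 0.17 for Fkbp5 and Sgk1 with water.

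The replicate numbers did not pair the libraries. Deviations from the group means had a median correlation of 0.00037 over 63 pairs with the same number and -0.0012 over 126 with another number, and 9 of 21 libraries correlated best with their own number. Under the replicate block Fkbp5 between the extracts had an adjusted p of 0.0569 by edgeR, and no other call was affected. All 28 group means moved by less than 1 SD with DESeq2 size factors. The gene most like a member was another for 3 of 4 members with 18 libraries. The cause of these shifts was not tested. Depth limits Sgk1, with 10 to 49 counts per library.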
